A study of Mus musculus with 6 samples.

Results

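The heat shock proteins, their DNAJ co-chaperones and the chaperonins were followed as 1 group of genes in the mouse mast cell line MC/9. Members were chosen by gene symbol alone. They are all symbols that start with Hspa, Hspb, Hspd, Hspe, Hsph or Hsp90, all numbered Dnaja, Dnajb and Dnajc genes, the numbered chaperonin genes Cct2 to Cct8, and Tcp1, Hsf1, Hsf2, Bag3, Chordc1 and Cryab. The rule found 84 of the 49568 genes in the count table, and 77 of the 84 were covered deeply enough to test among 16696 genes. The chaperonin subunit Cct6a fell outside the symbol rule because of its letter and is given apart.

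RNA was sequenced from 3 rPTH libraries and 3 control libraries. For the rPTH libraries, MC/9 cells were placed on 7F2 osteoblasts plated a day earlier, and RNA came from the mast cells after the shared culture had been kept with 10 nM rPTH for 24 h. The control libraries are labelled as MC/9 cells with no treatment. The labels do not spell out rPTH, and leave unsaid whether control mast cells also sat on osteoblasts. They also do not call the 3 libraries of a group separate cultures. The p-values therefore measure only the spread between these libraries, which may be technical. Both lines are established mouse lines, MC/9 a mast cell line and 7F2 an osteoblast line, and each stands for its cell type as 1 line. In RNA from many cells, fewer cells of a type and less RNA per cell cannot be told apart.

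Chaperones hold other proteins while they fold. Hsp70 proteins bind short hydrophobic stretches under the control of ATP, DNAJ proteins bring them their clients and start ATP hydrolysis, and Hsp110 proteins reset them; Hsp90 takes over kinases and hormone receptors late in folding, and the ring-shaped chaperonins enclose whole proteins, TRiC in the cytosol for actin and tubulin and Hspd1 with Hspe1 in mitochondria. The heat shock factor Hsf1 binds repeats of the letters GAA in alternating directions before stress genes and raises their transcription.

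Across the 77 tested members, no chaperone gene was called different between rPTH and control. With edgeR, 0 members had an adjusted p under 0.05, beside 0.0% of all tested genes, and 0 had an unadjusted p under 0.05, beside 7.87% of all tested genes (1.98% higher and 5.89% lower with rPTH). The members' edgeR adjusted p ran from 0.619 to 0.999 and the smallest unadjusted p was 0.0692, for Dnajc10. DESeq2 and limma-voom also called 0 members at an adjusted p under 0.05, beside 8 of 38206 and 0 of 16696 genes. At an unadjusted p under 0.05 they called 1 member and 0 members, beside 1995 and 790 of those genes. By the authors' deposited table, too, 0 of 84 members had an adjusted p under 0.05, beside 11 of 38144 genes. There 1 member, Dnajc10, had an unadjusted p under 0.05, beside 1940 genes (5.09%). Its log2 fold change was 0.4, with an adjusted p of 0.332 in the authors' table.

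The fold changes were small. The median log2 fold change of the members, rPTH minus control, was -0.06, beside -0.09 for all tested genes, and 31 members (40.3%) had a value above 0, beside 41.5% of all tested genes. An absolute log2 fold change of at least 0.5 was reached by 5 members (6.49%), beside 25.9% of all tested genes, and of at least 1 by 0 members, beside 8.37%. The 95% interval lay inside -1 to 1 for 57 members and inside -0.5 to 0.5 for 16, and its median width on either side was 0.57. The 3 rPTH libraries lay wholly above the 3 controls for 6 members (7.79%), beside 8.35% of all tested genes, and wholly below them for 2 members (2.6%), beside 8.46%. The 6 are Hsph1, Hsf2, Chordc1, Dnajb4, Dnajc1 and Dnajc10, and the 2 are Dnajb12 and Dnajc30.

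**Figure D1:**
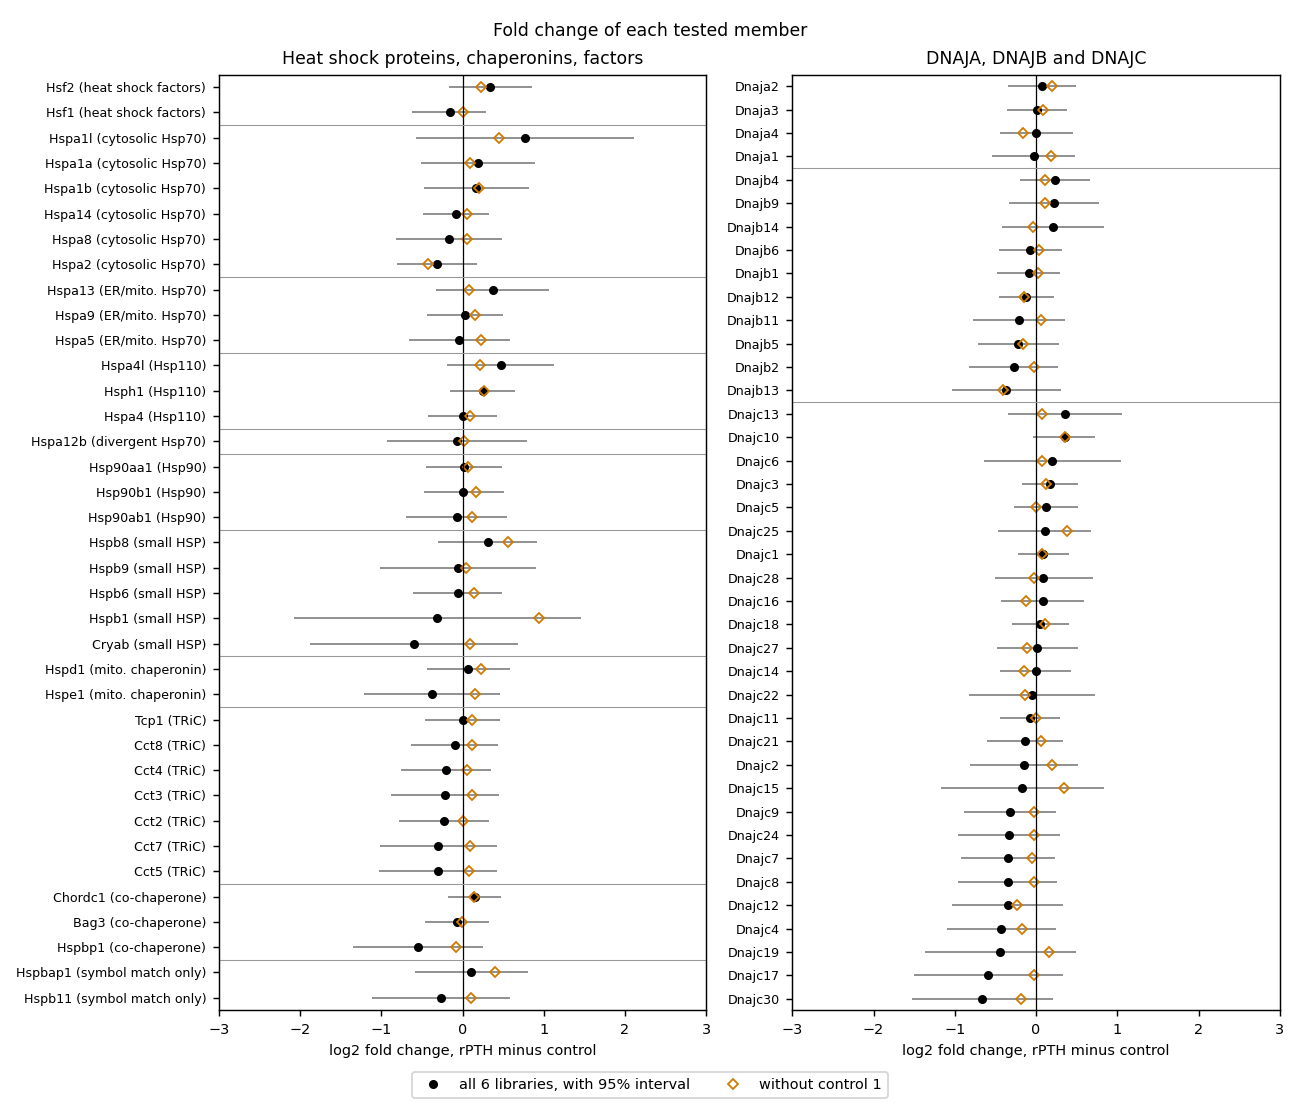
Log2 fold change, rPTH minus control, of each of the 77 tested members by class (black, all 6 libraries with the 95% interval of the edgeR fit; open diamonds, without control 1). Each 95% interval includes 0, and the 7 TRiC subunits lie at or left of 0 with all libraries and at or right of it without control 1.

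Total counts were 30623648 to 33577977 in the rPTH libraries and 22282095 to 24993606 in the controls. Control 1 stood apart on the first principal component of all genes (53.1% of the variance), while control 3 did so on the second (31.1%), and control 1 had the lowest TMM scaling factor, 0.81 against 1.03 to 1.06 in the other 5 libraries. Control 1 was the highest of the 6 libraries for 47 of the 77 members and the lowest for 17. Over the 16696 tested genes it was the highest for 6568 and the lowest for 5544. Most fold changes that control 1 moved are therefore given below with and without it. Without it 52 of the 77 members had a log2 fold change above 0 (median 0.07), beside 7347 of the 16696 genes (median -0.03). Scaling by library totals in place of TMM moved the median of all tested genes to 0.04 and that of the members to 0.08. The number of members with a log2 fold change above 0 was then 50, beside 9049 of the 16696 tested genes.

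Levels per length, given as RPKM (TMM-scaled CPM over the length of the main annotated transcript in kilobases), differed widely between members. The cytosolic Hsp90 gene Hsp90ab1 led with 1530 ± 239 RPKM (SD over the 6 libraries), and Hspa8, the constitutive cytosolic Hsp70, had 1390 ± 277 RPKM. Hsp90ab1 lay above Hspa8 in each library, though the 2 means differed by less than either SD over the libraries. Hsp90aa1, the stress-responsive Hsp90, had 367 ± 22.9 RPKM and Cct2, a TRiC subunit, 311 ± 62.9 RPKM, and Hspd1, Cct5, the endoplasmic reticulum (ER) chaperones Hspa5 and Hsp90b1, and the mitochondrial Hsp70 Hspa9 followed between 274 and 209 RPKM; neighbours among these 7 genes lay within the larger of their SDs of each other. The classical inducible pair was low: Hspa1b had 7.05 ± 1.79 RPKM and Hspa1a 3.4 ± 0.904 RPKM. The small heat shock proteins Hspb1 (0.546 ± 0.414 RPKM) and Cryab (0.5 ± 0.293 RPKM) were among the lowest tested members, with Hspa1l the lowest at 0.182 RPKM.

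**Figure D2:**
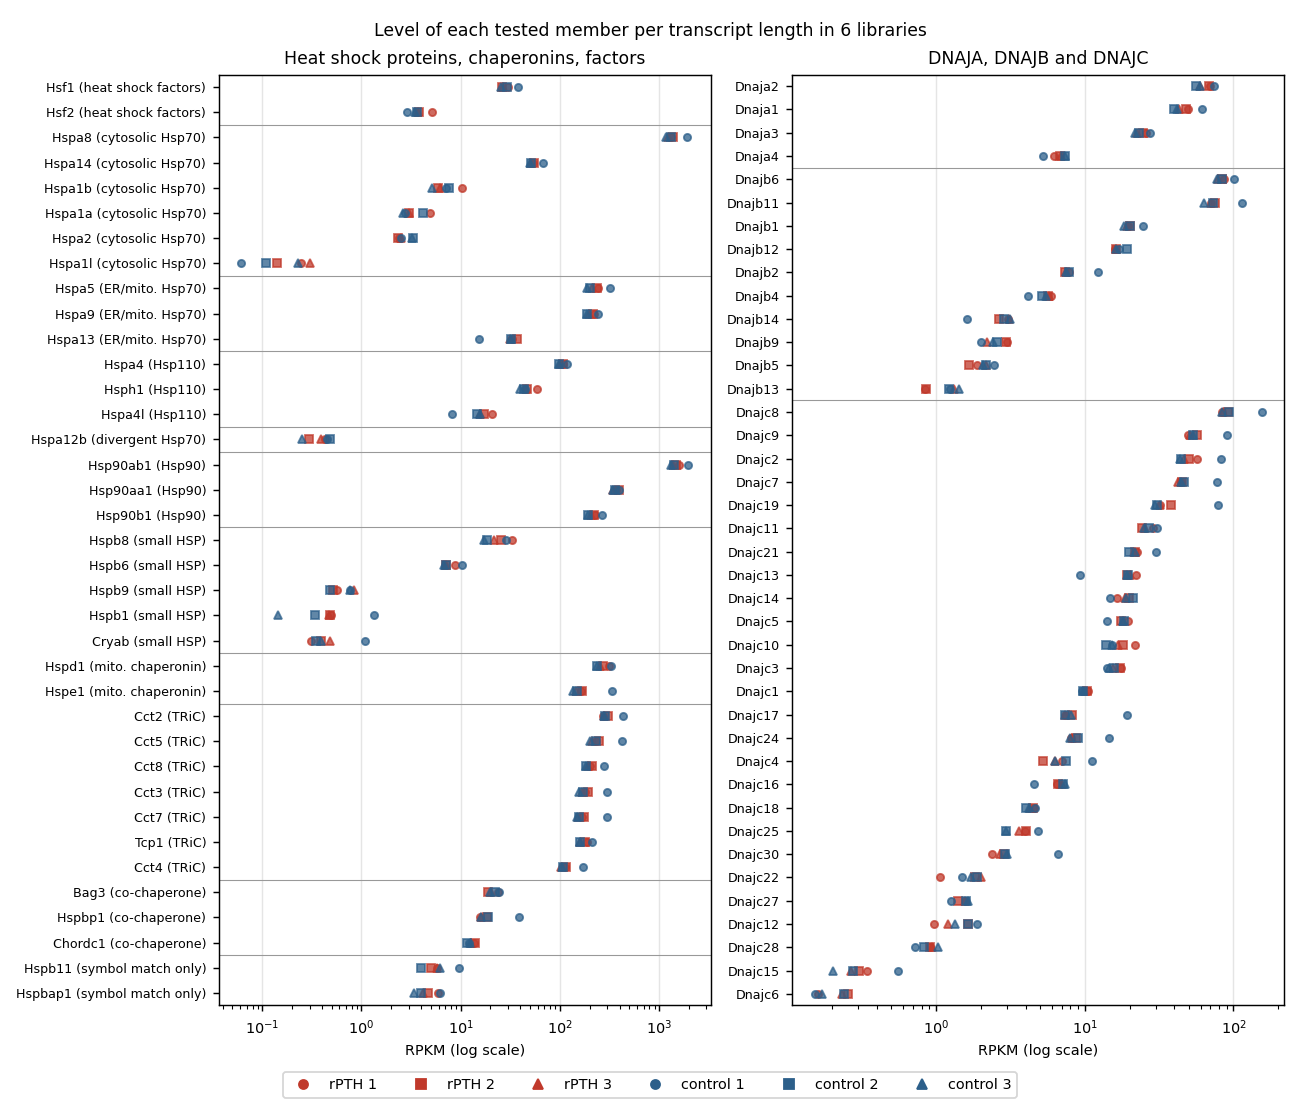
Level of each tested member in the 6 libraries as RPKM on a log scale, by class (red, rPTH; blue, control; symbol shape, replicate). Hsp90ab1 and Hspa8 lie above the other members in each library, Hspa1a and Hspa1b near or below 10 RPKM, and control 1 (blue circle) stands off to 1 side for many members.

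The 2 heat shock factors were both expressed. Hsf1, the main activator of the heat shock response, had 63.0, 54.7 and 55.6 CPM (counts scaled by library depth and TMM factor) in rPTH 1 to 3, against 79.8, 61.4 and 52.9 CPM in control 1 to 3. These libraries overlap, and the log2 fold change was -0.16 ± 0.19 (SE; edgeR adjusted p = 0.735) with all libraries and 0.00 without control 1. Hsf2, a factor active in development and differentiation, had 13.4, 9.92 and 9.76 CPM with rPTH, against 7.5, 9.45 and 9.13 CPM in controls. The lowest rPTH library lay just above the highest control and rPTH 1 stood off from the other 5, and the log2 fold change was 0.34 ± 0.22 (edgeR adjusted p = 0.629). It was 0.18 without rPTH 1 and 0.17 with each library's length and GC trend removed.

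The inducible cytosolic Hsp70 pair was low in both groups, and its groups overlapped. Hspa1a, an inducible cytosolic Hsp70 on chromosome 17 (GRCm38 34969190 to 34972156, minus strand), had 14.5, 8.9 and 8.92 CPM in rPTH 1 to 3, against 8.21, 12.3 and 7.74 CPM in control 1 to 3. Hspa1b, its near copy 9951 bases away, had 28.7, 16.5 and 17.5 CPM with rPTH, against 19.8, 21.5 and 14.5 CPM in controls. For both genes rPTH 1 was the highest library, at 1.57 times the mean of the other 5 for Hspa1a, while rPTH 2 and rPTH 3 lay inside the control range. The log2 fold changes were 0.19 ± 0.30 for Hspa1a (edgeR adjusted p = 0.791) and 0.17 ± 0.27 for Hspa1b (edgeR adjusted p = 0.799), and without rPTH 1 they were -0.08 and -0.13. The coding sequences of the pair match at 1918 of 1926 bases (99.6%), so the split of reads between them is uncertain. Hspa1b had 1.86 to 1.98 times the count of Hspa1a in the rPTH libraries and 1.75 to 2.41 times in the controls.

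Hsph1, the inducible Hsp110 that exchanges nucleotide on Hsp70, had 224, 179 and 173 CPM with rPTH, against 169, 166 and 152 CPM in controls. All 3 rPTH libraries lay above all 3 controls, and rPTH 1 stood off from the other 5. The log2 fold change was 0.25 ± 0.17 (edgeR adjusted p = 0.633), and 0.12 without rPTH 1 or with the length and GC trend removed. Chordc1, a zinc-binding partner of Hsp90 that heat induces, had 79.7, 80.5 and 73.2 CPM with rPTH, against 70.8, 67.8 and 71.8 CPM in controls, a log2 fold change of 0.15 ± 0.14 (edgeR adjusted p = 0.681) without overlap of the groups. Removal of each library's trend with transcript length and GC content turned it to -0.54. Dnajb1, the main inducible DNAJ partner of Hsp70, had 58.1, 60.0 and 58.0 CPM with rPTH, against 73.4, 59.9 and 54.7 CPM in controls. Its rPTH libraries lay close together, inside the control range (log2 fold change -0.09 ± 0.16, edgeR adjusted p = 0.811; 0.02 without control 1). Bag3, which links Hsp70 to the autophagy of aggregates, had 61.0, 48.9 and 52.0 CPM with rPTH, against 62.4, 57.0 and 50.5 CPM in controls (log2 fold change -0.07 ± 0.17, edgeR adjusted p = 0.863). Over 9 members known as heat-inducible (Hspa1a, Hspa1b, Hsph1, Hsp90aa1, Dnajb1, Bag3, Chordc1, Hspb1 and Cryab) 5 had a log2 fold change above 0 and 4 below, with a median of 0.02 beside -0.06 over all members. Without control 1, 8 of the 9 were above 0 (median 0.09, beside 0.07 over all members). With library totals 7 were above 0 (0.15, beside 0.08), and without rPTH 1 only 3 (-0.09, beside -0.09).

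**Figure D3:**
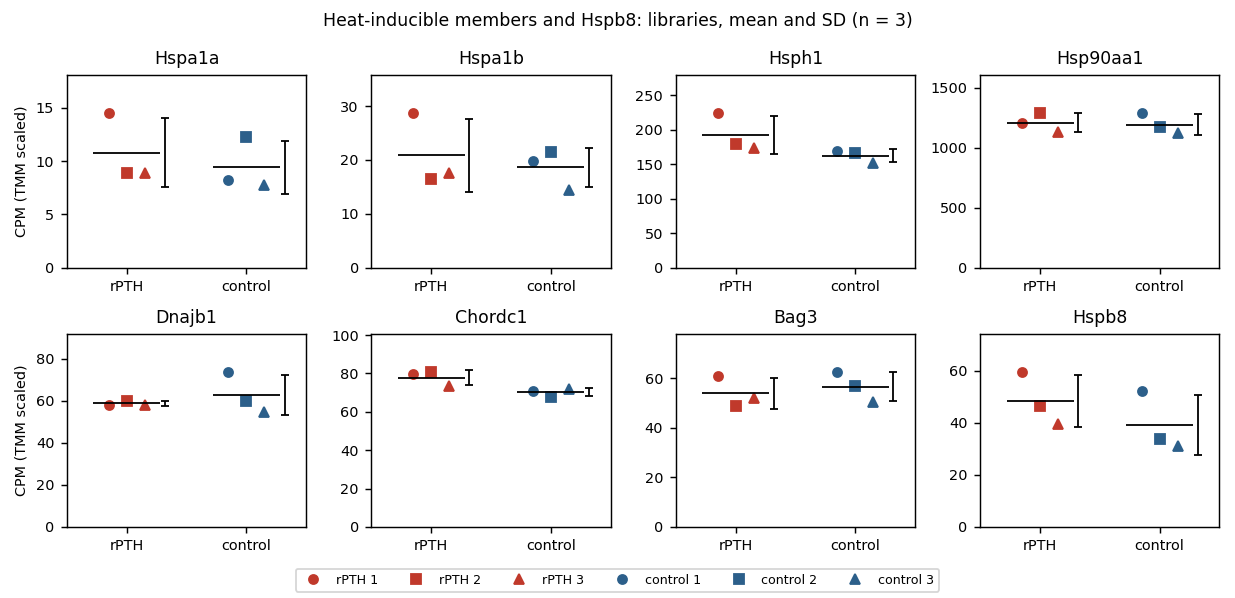
Level in CPM (TMM scaled) of 7 heat-inducible members and the small heat shock protein Hspb8 in each library (symbols), with the mean (line) and SD (bar) of 3 libraries per group. For Hspa1a and Hspa1b rPTH 1 is the highest library and the other rPTH libraries lie among the controls, while for Hsph1 and Chordc1 the groups do not overlap.

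The promoters below show where letters bound by heat shock factors stand in members of these groups: Hspa1a as the low inducible Hsp70, Hsph1 and Chordc1 as members whose groups did not overlap, and Hspe1 as the mitochondrial co-chaperonin read from the same stretch as Hspd1. Sequences are from RefSeq on GRCm38.p6, from 250 bases before to 50 bases after the annotated start, 5′ to 3′ on the gene's strand. Capitals mark matches, on either strand, to GAANNTTCNNGAA, GAANNTTC or TTCNNGAA. The first motif contains both of the others.
Hspa1a promoter, chr17:34972107-34972406, minus strand: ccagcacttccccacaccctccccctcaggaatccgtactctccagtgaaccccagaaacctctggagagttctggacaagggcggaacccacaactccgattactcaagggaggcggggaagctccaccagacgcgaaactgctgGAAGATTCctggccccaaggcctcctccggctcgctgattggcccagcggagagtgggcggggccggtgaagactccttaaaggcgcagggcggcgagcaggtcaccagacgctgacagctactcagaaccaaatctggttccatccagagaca
Hsph1 promoter, chr5:149636287-149636586, minus strand: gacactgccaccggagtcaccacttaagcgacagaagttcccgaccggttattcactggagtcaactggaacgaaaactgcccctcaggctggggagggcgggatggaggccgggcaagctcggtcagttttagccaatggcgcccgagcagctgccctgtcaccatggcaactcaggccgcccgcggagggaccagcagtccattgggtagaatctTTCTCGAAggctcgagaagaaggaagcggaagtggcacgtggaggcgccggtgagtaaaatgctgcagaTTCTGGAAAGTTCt
Chordc1 promoter, chr9:18292017-18292316, plus strand: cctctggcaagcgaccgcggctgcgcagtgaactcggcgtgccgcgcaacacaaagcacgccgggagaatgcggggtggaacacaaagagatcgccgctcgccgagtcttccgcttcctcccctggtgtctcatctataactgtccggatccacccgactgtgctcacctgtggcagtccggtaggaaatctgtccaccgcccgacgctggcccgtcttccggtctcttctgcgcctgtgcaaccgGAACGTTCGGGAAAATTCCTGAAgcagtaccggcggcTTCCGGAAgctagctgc
Hspe1 promoter, chr1:55087898-55088197, plus strand: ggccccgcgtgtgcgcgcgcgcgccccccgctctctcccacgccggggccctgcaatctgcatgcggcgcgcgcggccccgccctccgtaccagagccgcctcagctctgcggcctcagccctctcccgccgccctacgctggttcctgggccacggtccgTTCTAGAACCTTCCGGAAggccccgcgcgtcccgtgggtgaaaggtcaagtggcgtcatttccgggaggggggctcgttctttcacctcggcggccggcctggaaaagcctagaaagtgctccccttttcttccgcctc

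Of 84 members, 68 had an entry among the RefSeq promoters, with 87 starts. Members without an entry, among them Hsp90aa1, Hsp90ab1, Hspa8, Cryab and Hsf1, were not searched for these motifs. The 3-unit motif GAANNTTCNNGAA was found in 7 of the 87 (8.05%), from the 5 genes Chordc1, Dnajb6, Hspd1, Hspe1 and Hsph1, and in 198 of all 32851 promoters (0.603%). These are counts of windows, not of separate sites. The windows of Hsph1 overlap, as do those of Dnajb6, and a window of Hspd1 overlaps that of Hspe1. GAANNTTC stood in 20.7% of the member promoters and 7.86% of all, and TTCNNGAA in 11.5% and 8.52%. The promoter of Hspa1a holds the shorter GAANNTTC, at position -104 from the start, and that of Hspa1b is the same at 296 of 300 bases with the same match. A match is a description of letters in this window, and the 5 genes with the 3-unit motif had log2 fold changes of 0.15 (Chordc1), -0.07 (Dnajb6), 0.07 (Hspd1), -0.37 (Hspe1) and 0.25 (Hsph1), of which 0 passed the test.

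The constitutive Hsp70 and Hsp90 genes differed little between the groups, apart from control 1. Hspa8 had 3160, 3290 and 2930 CPM in rPTH 1 to 3, against 4620, 3140 and 2790 CPM in control 1 to 3. Control 1 was 1.51 times the mean of the other 5 libraries and the others overlapped, so that the log2 fold change was -0.17 ± 0.28 (edgeR adjusted p = 0.797) with all libraries and 0.06 without control 1. Hsp90ab1 had 4020, 3770 and 3500 CPM with rPTH, against 4990, 3540 and 3330 CPM in controls. Its log2 fold change likewise was -0.07 ± 0.26 (edgeR adjusted p = 0.914) and 0.12 without control 1. Hsp90aa1 had 1210, 1290 and 1130 CPM with rPTH, against 1290, 1170 and 1120 CPM in controls, and the libraries overlapped (log2 fold change 0.02 ± 0.20, edgeR adjusted p = 0.97). Per length, Hsp90ab1 was 3.8 to 4.34 times Hsp90aa1 in the rPTH libraries and 3.86 to 5.03 times in the controls, with control 1 at the top.

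In the ER, Hspa5 (BiP, the Hsp70 that unfolded proteins call on) had 893, 865 and 770 CPM with rPTH, against 1170, 740 and 684 CPM in controls. The 3 rPTH libraries lay between control 1 and the other 2 controls, and the log2 fold change was -0.04 ± 0.26 (edgeR adjusted p = 0.957) with all libraries and 0.23 without control 1, where the unadjusted p was 0.0511. Hsp90b1, the ER Hsp90, had 637, 625 and 583 CPM with rPTH, against 743, 540 and 543 CPM in controls, again with the rPTH libraries between control 1 and the other 2 controls (log2 fold change 0.01 ± 0.21, edgeR adjusted p = 0.978). Hspa9, the mitochondrial Hsp70 that pulls imported proteins in, had 675, 660 and 598 CPM with rPTH, against 743, 579 and 574 CPM in controls (log2 fold change 0.03 ± 0.20, edgeR adjusted p = 0.958). Hspa13, a microsomal Hsp70-like protein, ran the other way in control 1: 140, 157 and 134 CPM with rPTH, against 64.2, 135 and 135 CPM in controls. Its log2 fold change was 0.37 ± 0.30 (edgeR adjusted p = 0.654) with all libraries and 0.08 without control 1.

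The 3 Hsp110 genes had log2 fold changes above 0, with a median of 0.25, but with each library's length and GC trend removed 1 of the 3 was above 0 and the median was -0.09. Hspa4l had 196, 163 and 148 CPM with rPTH, against 76.9, 139 and 150 CPM in controls, and Hspa4 had 496, 493 and 459 CPM with rPTH, against 544, 449 and 449 CPM in controls. Control 1 held the lowest value for Hspa4l and the highest for Hspa4. The value for Hspa4l was 0.47 ± 0.28 (edgeR adjusted p = 0.628), and 0.21 without control 1, and for Hspa4 0.01 ± 0.18 (edgeR adjusted p = 0.99). Among the remaining cytosolic Hsp70 genes, the testis-enriched Hspa2 had 6.06, 5.89 and 6.39 CPM with rPTH, against 6.38, 8.29 and 8.09 CPM in controls. Its log2 fold change was -0.31 ± 0.21 (edgeR adjusted p = 0.629), and without control 1 it was -0.43 at an unadjusted p of 0.0359 (edgeR adjusted p = 0.4). The single largest log2 fold change of a tested member, 0.77 ± 0.56 for Hspa1l (edgeR adjusted p = 0.635), came from values of 0.603, 0.348 and 0.757 CPM with rPTH, against 0.152, 0.271 and 0.562 CPM in controls. It was 0.45 without control 1, and 1.46 without control 3 (unadjusted p = 0.0424, edgeR adjusted p = 0.468).

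The small heat shock proteins, which hold unfolded proteins without ATP, were led by Hspb8, a partner of Bag3. Hspb8 had 59.3, 46.6 and 39.5 CPM in rPTH 1 to 3, against 52.2, 33.8 and 31.2 CPM in control 1 to 3. Control 1 lay among the rPTH libraries and the other 2 controls lay below them. The log2 fold change was 0.31 ± 0.26 (edgeR adjusted p = 0.659) with all libraries, 0.56 without control 1 (unadjusted p = 0.0116, edgeR adjusted p = 0.4) and 0.14 without rPTH 1. With library totals it was 0.47 (edgeR unadjusted p = 0.0495, adjusted p = 0.677). With the length and GC trend removed it was 0.49 (edgeR unadjusted p = 0.0243, adjusted p = 0.85). Per length Hspb8 stood at 24.1 RPKM, above Hspb6, a muscle-enriched relative, at 7.92 RPKM. Hspb1 (Hsp27) had 0.444, 0.435 and 0.421 CPM with rPTH, against 1.22, 0.31 and 0.13 CPM in controls, and Cryab, the lens crystallin that also guards the cytoskeleton, had 0.349, 0.435 and 0.533 CPM with rPTH, against 1.22, 0.387 and 0.433 CPM in controls. Control 1 alone was above 1 CPM for both. Their log2 fold changes were -0.31 ± 0.75 for Hspb1 (edgeR adjusted p = 0.863) and -0.60 ± 0.54 for Cryab (edgeR adjusted p = 0.674), against 0.94 and 0.09 without control 1. Hspb2, Hspb3 and Hspb7 were too low to test, with at most 3 counts in a library.

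The TRiC chaperonin, the ring that folds actin and tubulin, shared 1 pattern over the libraries, and it lay in control 1. All 7 subunits covered by the rule had a log2 fold change at or below 0, with a median of -0.21 beside -0.06 for all members, and 0 of the 7 passed the test at edgeR adjusted p of 0.698 to 0.995. Cct7 had 405, 423 and 368 CPM in rPTH 1 to 3, against 731, 381 and 364 CPM in control 1 to 3. Cct2 had 539, 596 and 548 CPM with rPTH, against 857, 565 and 550 CPM in controls. Cct8 had 483, 503 and 456 CPM with rPTH, against 662, 438 and 440 CPM in controls. Tcp1, the founding subunit, had 460, 436 and 395 CPM with rPTH, against 511, 393 and 390 CPM in controls. Control 1 was the highest library for each of the 7, at 1.23 (Tcp1) to 1.88 (Cct7) times the mean of the other 5, and without it the median was 0.09 and 6 of the 7 values were above 0. With library totals as the scale 2 of the 7 were above 0, and the median was -0.04. With the length and GC trend removed 1 of the 7 was above 0 (median -0.16), and without control 3 also 1 (median -0.23). Cct6a, the subunit outside the rule, had a log2 fold change of 0.03 ± 0.21 (edgeR adjusted p = 0.951), and Cct6b was too low to test.

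The mitochondrial chaperonin split in the same library. Hspd1, the Hsp60 barrel, and Hspe1, its Hsp10 lid, lie head to head on chromosome 1 (GRCm38 55077835 to 55088243 on the minus strand and 55088132 to 55091307 on the plus strand) and overlap by 112 bases. Hspd1 had 754, 666 and 620 CPM with rPTH, against 790, 574 and 578 CPM in controls. Hspe1 had 126, 129 and 113 CPM with rPTH, against 257, 115 and 105 CPM in controls. Without control 1 the rPTH libraries lay above the remaining controls for Hspd1, and for Hspe1 all but rPTH 3 did. The log2 fold changes were 0.07 ± 0.22 for Hspd1 (edgeR adjusted p = 0.89) and -0.37 ± 0.35 for Hspe1 (edgeR adjusted p = 0.688), and without control 1 they were 0.23 and 0.15. The count ratio of Hspd1 to Hspe1 was 5.15 to 5.96 in the rPTH libraries and 3.07, 5.0 and 5.49 in control 1 to 3. Reads of processed copies may also be shared with these genes: 14 copies, symbols that add -ps to a member's, together had 3815, 4149 and 3773 counts in rPTH 1 to 3, against 2681, 2440 and 5000 counts in control 1 to 3, with control 3 the highest of the 6 libraries. Most of these counts were of 1 copy, Hspd1-ps3, and the other copies together had 818, 1097 and 830 counts in rPTH 1 to 3, against 744, 555 and 1923 counts in control 1 to 3.

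**Figure D4:**
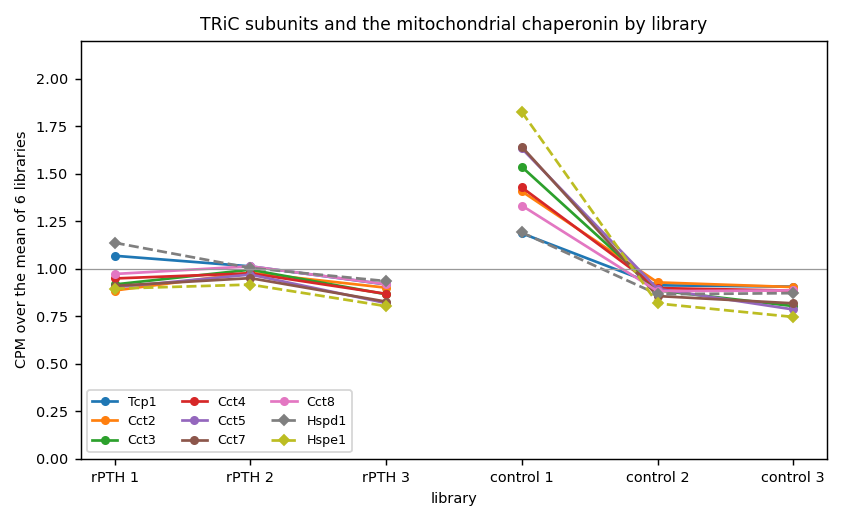
Level of the 7 TRiC subunits (solid) and of Hspd1 and Hspe1 (dashed) in each library, as CPM over the gene's mean of the 6 libraries. Control 1 lies highest for each of the 9 genes, least so for Tcp1 and Hspd1, and the other 5 libraries lie close together.

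The DNAJ proteins made up 40 of the 77 tested members. The 4 DNAJA genes, general partners of Hsp70, had a median log2 fold change of 0.00, the 10 tested DNAJB genes -0.11 and the 26 DNAJC genes -0.06. Dnaja1 had 280, 269 and 243 CPM with rPTH, against 345, 225 and 236 CPM in controls (log2 fold change -0.03 ± 0.22, edgeR adjusted p = 0.962), a value of 0.18 without control 1 and -0.57 with the length and GC trend removed. Dnaja2 had 204, 200 and 175 CPM with rPTH, against 217, 163 and 173 CPM in controls (0.07 ± 0.18, edgeR adjusted p = 0.875). For Dnaja1 the rPTH libraries lay between control 1 and the other 2 controls. Per length the 2 most abundant were Dnajc8, known from splicing complexes, at 98.9 RPKM and Dnajb6, which holds back aggregation, at 85 RPKM, a difference within their spread of 28.3 and 8.34 RPKM (SD, n = 6). This order rests on the annotated transcript lengths. In CPM, Dnaja1, with a transcript of 5622 bases, lay above both in each library.

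Dnajc10 (ERdj5, which reduces disulfide bonds in the ER) had the smallest p of all members. It had 88.1, 72.5 and 67.2 CPM in rPTH 1 to 3, against 61.2, 56.3 and 61.5 CPM in control 1 to 3. The groups did not overlap, and rPTH 1 stood highest. The log2 fold change was 0.35 ± 0.16 (95% interval -0.04 to 0.73, edgeR adjusted p = 0.619), 0.35 without control 1 at an unadjusted p of 0.0223 (edgeR adjusted p = 0.4), 0.23 without rPTH 1, and 0.15 with the length and GC trend removed. Among the other ER partners, Dnajc3 (which binds unfolded proteins and restrains the kinase PERK) had 89.8, 88.1 and 79.0 CPM with rPTH, against 72.5, 81.1 and 75.3 CPM in controls. The groups overlapped for Dnajc3 (log2 fold change 0.17 ± 0.14, edgeR adjusted p = 0.668). Dnajc1, an ER membrane protein that meets the ribosome, had 57.9, 56.7 and 55.3 CPM with rPTH, against 52.4, 53.5 and 53.3 CPM in controls, a narrow gap without overlap (0.09 ± 0.13, edgeR adjusted p = 0.778). Dnajb11, the soluble partner of Hspa5, had 176, 188 and 178 CPM with rPTH, against 285, 182 and 160 CPM in controls, with control 1 far above the rest (-0.21 ± 0.24, edgeR adjusted p = 0.725; 0.06 without control 1). Dnajb9, a stress-induced ER partner, had 7.4, 7.28 and 5.41 CPM with rPTH, against 4.91, 6.31 and 5.97 CPM in controls (0.22 ± 0.24, edgeR adjusted p = 0.711; 0.11 without control 1). Dnajb12, an ER membrane protein of protein disposal, had 48.7, 49.6 and 49.7 CPM with rPTH, against 52.5, 58.8 and 49.8 CPM in controls; rPTH 3 and control 3 almost touched (-0.12 ± 0.14, edgeR adjusted p = 0.733).

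Among mitochondrial DNAJ proteins, Dnajc30 and Dnajc19 stood high in control 1 and Dnaja3 less so. Dnajc30 had 3.94, 4.76 and 4.43 CPM with rPTH, against 10.9, 4.84 and 4.97 CPM in controls, and Dnajc19, an import motor subunit, had 21, 24.9 and 21 CPM with rPTH, against 51.5, 20.2 and 19.5 CPM in controls. For both genes control 1 was far above each other library. The log2 fold change of Dnajc30 was -0.66 ± 0.37 (edgeR adjusted p = 0.628), -0.18 without control 1 and -0.39 with the length and GC trend removed. That of Dnajc19 was -0.44 ± 0.39 (edgeR adjusted p = 0.671) and 0.16 without control 1. Dnaja3, a partner of Hspa9, had 67.8, 65.5 and 59.6 CPM with rPTH, against 72.5, 61.6 and 57.8 CPM in controls, with overlapping libraries (0.01 ± 0.16, edgeR adjusted p = 0.986).

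Cytosolic and nuclear DNAJ proteins covered ribosome, membrane and RNA work. Dnajc2, which sits on ribosomes with Hspa14, had 122, 107 and 99.6 CPM with rPTH, against 177, 95.1 and 93.1 CPM in controls (log2 fold change -0.15 ± 0.28, edgeR adjusted p = 0.819; 0.20 without control 1). Dnajc13, an endosome protein, had 178, 154 and 162 CPM with rPTH, against 73.9, 157 and 155 CPM in controls (0.36 ± 0.30, edgeR adjusted p = 0.659; 0.07 without control 1). Control 1 was the highest library for Dnajc2 and the lowest for Dnajc13, where it had 0.459 times the mean of the other 5. Dnajc5, the cysteine string protein of vesicle release, had 128, 115 and 119 CPM with rPTH, against 92.9, 120 and 119 CPM in controls (0.12 ± 0.17, edgeR adjusted p = 0.768; 0.00 without control 1). Dnajb4, a cytosolic partner of Hsp70, had 14.6, 13.9 and 14.1 CPM with rPTH, against 10.2, 12.6 and 13.5 CPM in controls, without overlap (0.23 ± 0.18, edgeR adjusted p = 0.649; 0.11 without control 1 and 0.03 with the length and GC trend removed). Dnajb3, Dnajb7 and Dnajb8 were too low to test, with at most 5 counts in a library.

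Of the other members, Hspbp1, which releases nucleotide from Hsp70, had 24.8, 29.2 and 25.5 CPM with rPTH, against 61.3, 29.8 and 25.6 CPM in controls. Control 1 stood off, at 2.27 times the mean of the other 5, and the log2 fold change was -0.55 ± 0.34 (edgeR adjusted p = 0.628) with all libraries and -0.08 without control 1. A pair of members share the symbol pattern but are no heat shock proteins by class. Hspb11 (also Ift25), a part of the transport train in cilia, had 3.55, 3.04 and 3.48 CPM with rPTH, against 5.88, 2.4 and 3.81 CPM in controls (log2 fold change -0.26 ± 0.36, edgeR adjusted p = 0.769; 0.10 without control 1). Hspbap1, named for binding Hspb1, had 9.97, 8.0 and 7.07 CPM with rPTH, against 10.6, 6.85 and 5.71 CPM in controls (0.11 ± 0.29, edgeR adjusted p = 0.871; 0.40 without control 1). Hspa12a was too low to test, and Hspa12b, an endothelial relative of Hsp70, ranged from 0.865 to 1.63 CPM over the 6 libraries.

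Other genes of the folding machinery, taken from lists of helpers, were not called either: 0 of the genes below had an edgeR adjusted p under 0.05 and 0 an unadjusted p under 0.05. Of 18 Hsp90 co-chaperones, 1 had a log2 fold change above 0 and 17 below, with a median of -0.21; without control 1 the median was -0.05 and 7 were above 0, and with library totals it was -0.05 with 7 above 0. Cdc37, which brings kinases to Hsp90, had 208, 224 and 212 CPM with rPTH, against 469, 247 and 211 CPM in controls (-0.53 ± 0.31, edgeR adjusted p = 0.628). Of 9 prefoldin subunits and TRiC helpers, 2 were above 0 and 7 below, with a median of -0.36, and without control 1 it was 0.06. Vbp1, a prefoldin subunit, had 68.6, 67.9 and 58.4 CPM with rPTH, against 54.2, 45.2 and 54.0 CPM in controls, without overlap (0.35 ± 0.16, edgeR adjusted p = 0.619). Of 12 Hsp70 exchange factors and co-chaperones 3 were above 0 and 9 below (median -0.17, and 0.01 without control 1), and of 8 mitochondrial chaperones and proteases 2 and 6 (median -0.09, and 0.09 without control 1). Of 13 other genes that heat induces in many cells 2 were above 0 and 11 below, with a median of -0.22, and -0.03 without control 1. Of 5 further genes named for heat shock factors, Hsf4 and Hsbp1 were tested and both lay below 0 (-0.36 and -0.43), while without control 1 their median was -0.03 and 1 of the 2 was above 0.

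The distance of control 1 from the other libraries went with transcript length. Over the 77 members, the log2 ratio of control 1 to the mean of the other 5 libraries correlated with log2 transcript length at r = -0.672 and rho = -0.676, and over 16203 tested genes with a length at r = -0.425 and rho = -0.525; these are correlations across genes of 1 library, and genes are not independent replicates. The other 5 libraries had r of 0.334 to 0.499 over the same members. Each of these was set against a mean that held control 1, so they are no separate contrast. Over all tested genes control 3 had r = -0.277 and rho = 0.0223, while the rPTH libraries and control 2 had r of 0.392 to 0.564. Members for which control 1 was the highest library had a median transcript of 2330 bases, and those for which it was the lowest had 4700 bases. Short members stood high in control 1, such as Dnajc19 (659 bases) and Hspe1 (774 bases), and long ones low, such as Dnajc13 (8012 bases) and Hspa4l (9479 bases). The part of RNA quality in these values was not tested. With each library's trend with length and GC content removed, the median log2 fold change of the members was -0.09, beside -0.05 for all tested genes. Above 0 were then 27 of the 77 members, beside 6778 of the 16203 genes.

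**Figure D5:**
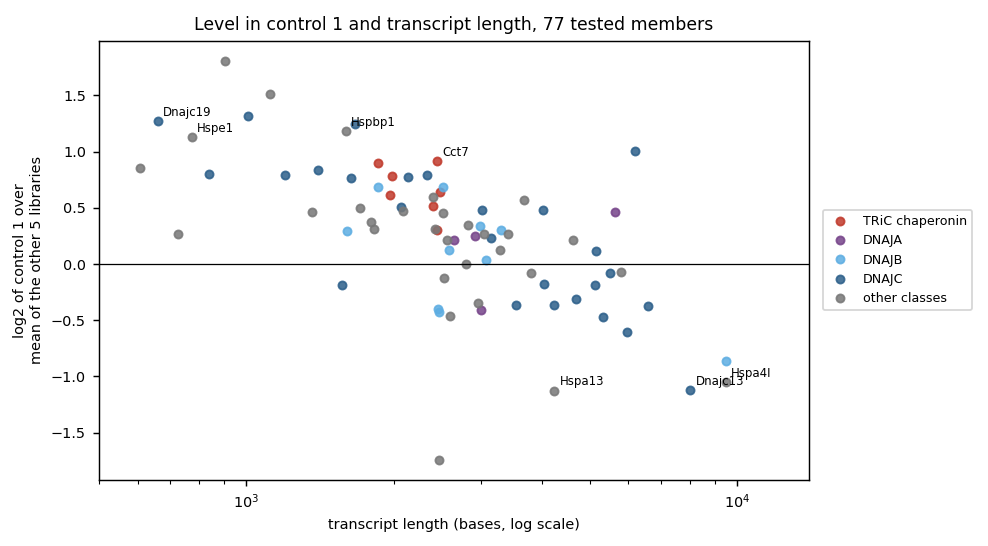
Log2 ratio of the CPM in control 1 to the mean of the other 5 libraries against main transcript length in bases (log scale), 1 point per tested member, coloured by class. Short members such as Dnajc19 and Hspe1 lie above 1 and long ones such as Dnajc13 and Hspa4l below -1.

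The labelled cell type and the other cells of the culture were checked by markers. Of 13 mast cell markers 12 were tested, with 4 log2 fold changes above 0 and 8 below, a median of -0.23, and -0.08 without control 1. Of the 12, 1 (Tpsab1) was lower at an unadjusted p under 0.05, beside 5.89% of all tested genes, and 3 (Tpsb2, Tpsab1 and Gata2) lay wholly below the controls, beside 8.46%. The summed level of the 13 markers was 6610 to 8720 CPM in the rPTH libraries and 7830 to 8280 CPM in the controls. This sum and the sums below are in plain CPM, without the TMM factors. With TMM scaling the mast cell sum was 6430 to 8330 CPM with rPTH and 7960 to 9670 CPM in controls, with control 1 the highest. The chymase gene Mcpt4 was near 0 in each library. Of 16 osteoblast and stromal markers 14 were tested, all 14 with a log2 fold change above 0 (median 0.56), 7 higher at an unadjusted p under 0.05, beside 1.98% of all tested genes, 8 wholly above the controls, beside 8.35%, and 0 at an edgeR adjusted p under 0.05. Without rPTH 1 their median was 0.34. Their summed level was 2690, 1650 and 1920 CPM in rPTH 1 to 3, against 913, 1360 and 1290 CPM in control 1 to 3, while the late osteoblast genes Bglap and Ibsp were near 0. The library with the highest stromal sum, rPTH 1, was the highest for 13 of the 77 members, a smaller share than the 3375 of the 16696 tested genes. The 13 were Hspa1a, Hspa1b, Hsph1, Hspb8, Hspa4l, Hsf2, Dnajb4, Dnajb9, Dnajc1, Dnajc3, Dnajc5, Dnajc10 and Dnajc13. The part of stromal cells in those values was not tested. Of 5 adipocyte markers 2 were tested, with summed levels of 59.0 to 95.4 CPM in the rPTH libraries and 41.1 to 64.4 CPM in the controls, and of 5 macrophage markers 4, at 6.01 to 6.92 CPM in the rPTH libraries and 5.16 to 6.56 CPM in the controls.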

How the data were processed

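RNA was sequenced from 3 rPTH and 3 control libraries. The submitters' processing notes name STAR 2.5.2b, featureCounts of Subread 1.5.0p3, Trimmomatic 0.36, R 3.3.0 and DESeq2 1.12.4, in no stated order, and both GRCm38.p5 and mm9; no strand setting was given. The authors deposited whole-number counts per gene, a normalized signal (counts over 1 size factor per library), regularised log2 values, and a comparison table with log2 fold changes, a Wald score and a p-value per gene; the counts were tested here, the comparison table is quoted as the authors', and the signal and log2 tables were read only to learn their unit. Where a library had 0 counts, up to 3 counts remain possible (0.0893 to 0.135 CPM); these floors cover counting error only.

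Counts of all genes were fitted with edgeR 4.0.16 (robust quasi-likelihood test, TMM, filterByExpr with minimum count 10, Benjamini-Hochberg adjustment, threshold 0.05) and limma 3.58.1 in R 4.3.3; the scripts were tested on simulated data. DESeq2 1.42.0 was an alternative, and mgcv 1.9.3 fitted the length and GC trend. Other alternatives were DESeq2 size factors, library totals, limma-voom, no filter, at least 1 CPM in 3 libraries, a replicate block, each library left out, and protein-coding genes alone. CPM are TMM scaled; sums over marker lists are in plain CPM. Names, places and transcript lengths come from GENCODE M21 (GRCm38), in which each of the 84 members was found. No pair of libraries was a duplicate. Near-identical and overlapping genes, such as Hspa1a with Hspa1b, Hspd1 with Hspe1, Cryab with Hspb2 and Dnajc30 with Bud23, have uncertain counts.

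Members, lists and named genes were chosen with earlier results of these data known. Named by rule were members fixed by role, up to 5 others in each direction with the smallest p among members averaging 1 CPM or more without group overlap, and members whose symbol alone fits. The rule gave 3 in the upper direction and 2 in the lower; other members are named by their class or after their values were seen.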

Additional observations from a re-analysis of the deposited data

How the results depend on the processing

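Under each of 15 alternatives 0 members had an adjusted p under 0.05, and named members kept an adjusted p of at least 0.345. The count at an unadjusted p under 0.05, 0 here, was 1 with DESeq2 size factors and 2 with library totals (Dnajc10 and Hspb8). It was 1 with DESeq2, 1 with no filter and 1, Hspb8, with the length and GC trend removed. Over all genes the counts in that order were 1312 and 1192 of 16696, 1995 and 2377 of 38206, and 810 of 16203. Over the libraries left out, 0 to 4 members were called. The 4 (Dnajc10, Dnajc25, Hspb8 and Hspa2) came without control 1, beside 2165 of 17454 genes. The 1 without control 3 was Hspa1l, beside 1638 of 17250 genes. The median log2 fold change of the members ran from -0.10 (without control 2) to 0.08 (library totals and no filter). The log2 fold changes below had the other sign under the setting named, and the cause was not tested. With library totals, Hspa5 was 0.13, Hsp90ab1 0.08, Tcp1 0.14, Cct8 0.06, Dnaja1 0.13, Dnajb1 0.05 and Bag3 0.06. With no filter the same genes in that order had 0.12, 0.08, 0.14, 0.05, 0.12, 0.04 and 0.06. With DESeq2, Hspa5 was 0.05, Hsp90ab1 0.02, Tcp1 0.08, Dnaja1 0.06 and Bag3 0.01, and with its size factors in edgeR Hspa5 was 0.04, Tcp1 0.06 and Dnaja1 0.04. Tcp1 was 0.01 with 1 CPM in 3 libraries, 0.02 with protein-coding genes and 0.00 with limma-voom, where Hspb1 was 0.22. With the length and GC trend removed, Hspa9 was -0.07, Hsp90aa1 -0.15, Hsp90b1 -0.12, Hspb1 0.36, Hspe1 0.16, Tcp1 0.00, Hsf1 0.03, Bag3 0.03, Chordc1 -0.54, Dnajc1 -0.13 and Hspb11 0.18.

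Over the 6 libraries left out in turn, the log2 fold change ran from -0.08 to 0.43 for Hspa1a, -0.13 to 0.31 for Hspa1b, -0.25 to 0.06 for Hspa8, -0.14 to 0.23 for Hspa5, -0.04 to 0.15 for Hspa9, -0.03 to 0.07 for Hsp90aa1, -0.15 to 0.12 for Hsp90ab1, -0.07 to 0.17 for Hsp90b1, -0.65 to 0.94 for Hspb1, -0.89 to 0.09 for Cryab, -0.01 to 0.23 for Hspd1, -0.57 to 0.15 for Hspe1, -0.07 to 0.12 for Tcp1, -0.20 to 0.12 for Cct8, -0.14 to 0.18 for Dnaja1, -0.13 to 0.02 for Dnajb1, -0.23 to 0.00 for Hsf1, -0.53 to 0.10 for Hspb11 and -0.03 to 0.40 for Hspbap1. Over all tested genes the count at an unadjusted p under 0.05, 1314 here, was 272 without rPTH 1 and 2165 without control 1, and DESeq2 called 8 of 38206 genes at an adjusted p under 0.05.

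Deviations of same-numbered libraries correlated at -0.131, -0.323 and 0.142 over genes, and those of the other pairs at -0.271 to 0.354. These values showed no pairing by replicate number, though deviations centred within groups of 3 libraries cannot settle it. With a replicate block 0 members passed at either p, the median was -0.05, and Hspa5 was 0.00, Hspb1 0.07 and Tcp1 0.01; over all tested genes 525 had an unadjusted p under 0.05. Members under about 1 CPM rest on few counts: the 95% interval of Hspb1 ran from -2.08 to 1.46.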
